A study of Castanea mollissima with 18 samples.

Results

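In cultures of Chinese chestnut (Castanea mollissima), 126 genes stood higher in somatic embryo libraries 8, 9 and 10 than in each of the other 15 RNA sequencing libraries. They were chosen from 20365 genes that reached 1 FPKM in at least 6 of the 18 libraries, out of 33991 gene IDs in all. FPKM is the number of sequenced fragments of a gene, scaled to the length of its model and to the mapped fragments of the library. A gene was taken when its lowest log2(FPKM + 1) among somatic embryo 8, 9 and 10 exceeded its highest value among the other 15 libraries by at least 1.5. This difference is called the gap. Genes in which callus 1, 2 and 6 all lay at least 1 below every other library were left out, which removed 6 genes. The measured levels themselves chose the 126 genes, so their height in somatic embryo 8, 9 and 10 is described without a test.

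The study collected tissue cultures to compare gene expression between kinds of chestnut tissue. The libraries used here are 12 of somatic embryos (1 to 12) and 6 of callus (1 to 6). The labels name the tissue and a number for each library and state no stage, line, medium or age. Beside a run name and the tissue, the sample titles hold short codes, such as ys, that are the same in all libraries and are not explained. Which libraries came from separate cultures is not said either. P-values therefore rest on how much these libraries vary, and that variation could be technical in part or in whole. Somatic embryo 8, 9 and 10 are a set of similar libraries found in the data and not a group that the labels name, and the same holds for the other sets of 3 used below.

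Somatic embryos form in culture from body cells and pass through shapes like those of a seed embryo, from a globular body to one with cotyledons. Callus is a mass of dividing cells without organs, from which such embryos are often raised. Embryos that mature usually switch on genes for storage reserves and for tolerance of drying, while early ones express genes of patterning and cell division. The table gives gene IDs with no names or descriptions, so which of these programmes the 126 genes belong to was not tested, and genes are given by ID.

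The 3 libraries were close to each other over the rest of the transcriptome. Over the 20239 tested genes that are not among the 126, Spearman's correlation within somatic embryo 8, 9 and 10 was at least 0.964, and the highest with any other library was 0.895. Summed FPKM ran from 950919 to 974652 in these 3 libraries, from 957919 to 1067585 in the other 9 somatic embryos and from 980435 to 984719 in callus. Genes at 1 FPKM or more numbered 19091 to 19911 in somatic embryo 8, 9 and 10, 18555 to 19597 in the other 9 embryos and 18818 to 19371 in callus. Read depth is unknown, because the table holds no counts. Levels come from bulk RNA, so fewer cells of a type and less RNA per cell cannot be told apart.

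In somatic embryo 8, 9 and 10 the 126 genes ranged from low to very abundant. Their medians were 31.5, 29.5 and 27.3 FPKM in these 3 libraries. In the other 9 somatic embryos the library medians ran from 1.47 to 3.33 FPKM, and in callus from 1.02 to 2.07 FPKM. The mean over the 3 libraries was 7.22 FPKM in the lowest gene, 28.4 in the median gene and 1222 in the highest. Of the 126 genes, 115 reached 10 FPKM in all 3 libraries, whereas 42 reached 10 FPKM in any of the other 15. Set against all 20365 tested genes of the same library, the median gene of the set stood at percentile 67.1 to 69.5 in somatic embryo 8, 9 and 10. It stood at percentile 11.3 to 25.4 in the other embryos and 10.4 to 15.8 in callus. The choice of genes itself produces this contrast.

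**Figure D1:**
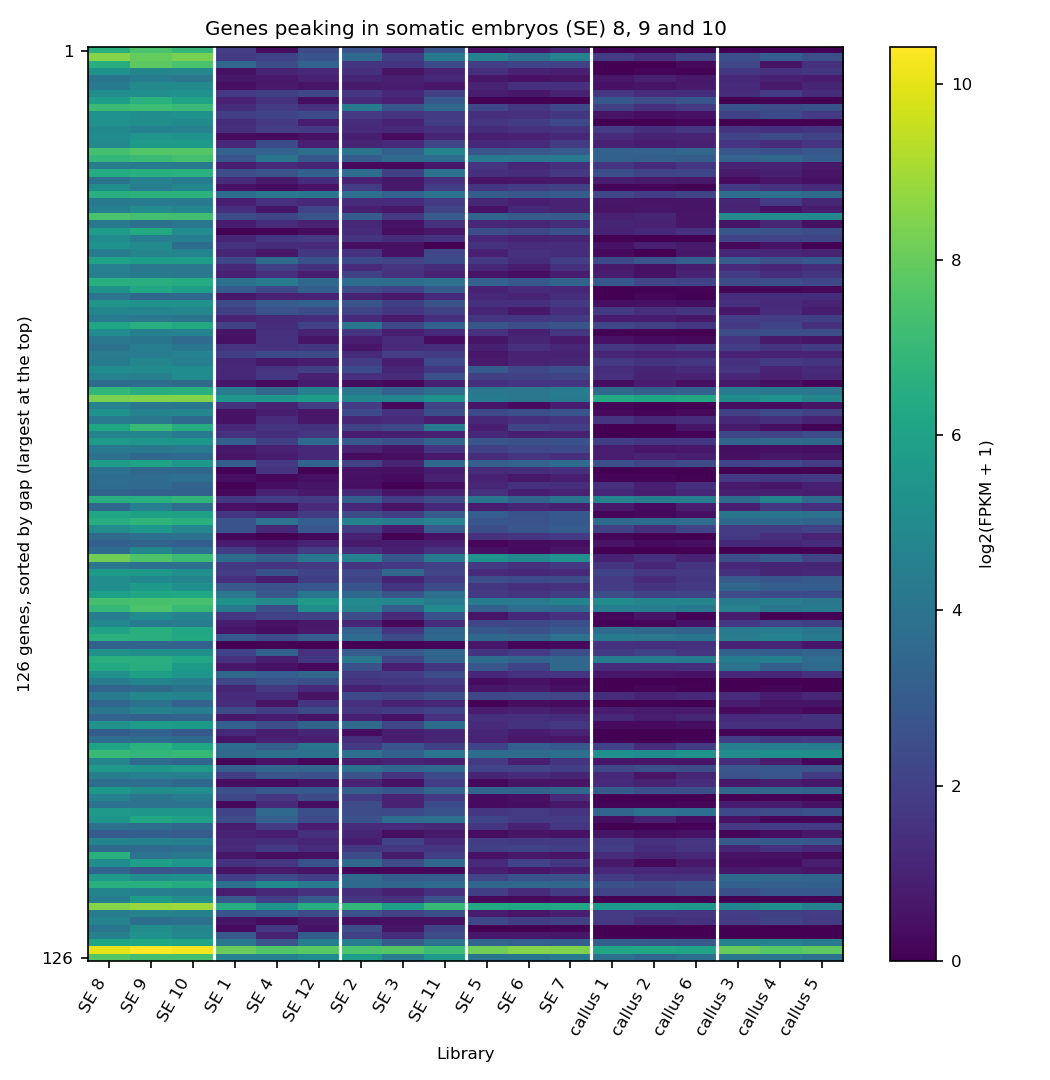
Level of each of the 126 genes (rows, sorted by gap) in each of the 18 libraries (columns), as log2(FPKM + 1); white lines part the sets of 3 libraries. The 3 columns on the left, somatic embryo (SE) 8, 9 and 10, are brighter than the rest of each row, with library medians of 27.3 to 31.5 FPKM against 1.02 to 3.33 FPKM elsewhere.

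The gap had a median of 1.84 and reached 3.86. It was at least 2 in 45 genes, at least 2.5 in 19 and at least 3 in 4. On the FPKM scale, the lowest of the 3 libraries exceeded the highest of the other 15 by 4.34-fold in the median gene, with a range of 2.84-fold to 16.8-fold. At the limit itself there was no break: the nearest genes inside had gaps of 1.504, 1.505 and 1.505, and the nearest outside 1.499, 1.499 and 1.491. Lowering the limit to 1 would have taken 256 genes.

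**Figure D2:**
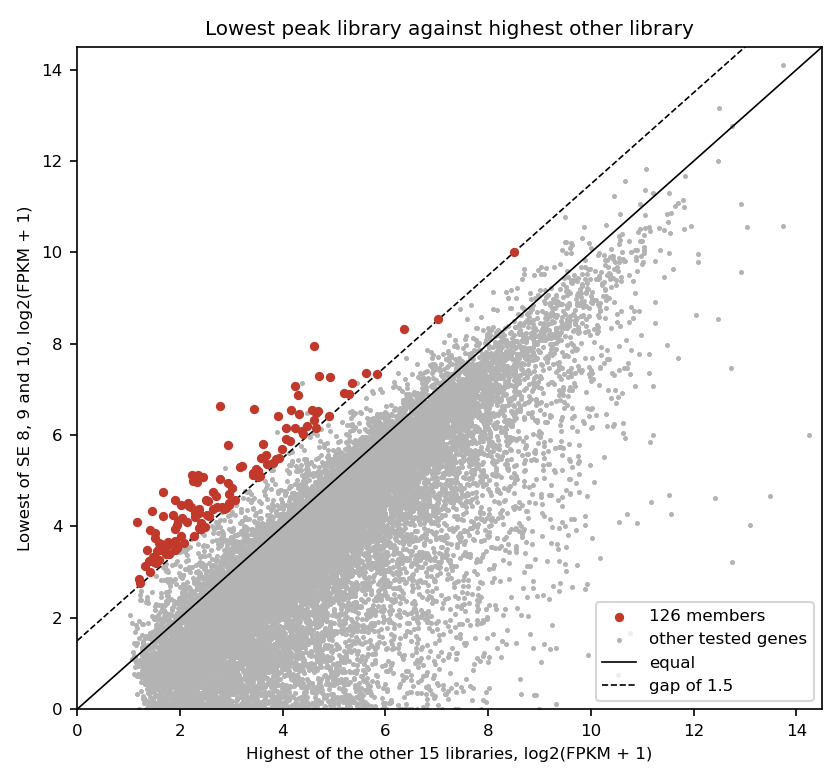
Lowest of somatic embryo (SE) 8, 9 and 10 (vertical) against the highest of the other 15 libraries (horizontal), both as log2(FPKM + 1), for the 20365 tested genes. Red points are the 126 members, on or above the dashed line of a gap of 1.5; the 6 grey points above that line are the genes left out for their low level in callus 1, 2 and 6.

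The requirement of 1 FPKM in 6 libraries kept out genes that were nearly silent elsewhere. A further 36 genes had the gap and failed that requirement, and in 28 of them no other library reached 1 FPKM. The lowest of somatic embryo 8, 9 and 10 stood between 3.21 and 36.3 FPKM in these 36 genes, with a median of 6.08 FPKM. The 126 genes therefore had at least 3 further libraries at 1 FPKM by construction. The 6 genes left out for callus 1, 2 and 6 had gaps of 1.71 to 2.77, and stood at no more than 2.45 FPKM in those 3 callus libraries.

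Cm07G01963.gene had the largest gap. Its levels were 99.2 FPKM in somatic embryo 8, 178 FPKM in 9 and 121 FPKM in 10. In the other 9 somatic embryos its lowest, median and highest levels were 0.27, 1.19 and 5.90 FPKM, and in callus they were 0, 0.01 and 0.04 FPKM. All callus libraries were at 0.04 FPKM or less, and the remaining embryos were low, with somatic embryo 11 the highest of them.

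Cm01G03648.gene had the next largest gap, with a pattern that included callus. Somatic embryo 8, 9 and 10 held 365, 247 and 309 FPKM of it. The lowest, median and highest levels were 2.38, 10.9 and 23.3 FPKM in the other embryos and 1.75, 3.98 and 7.77 FPKM in callus. All 18 libraries held more than 1 FPKM of it, and somatic embryo 5, 6 and 7 were the highest set after 8, 9 and 10, at 23.1, 13.6 and 23.3 FPKM.

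Cm01G04067.gene was the most abundant of the 126 and lay just inside the limit, with a gap of 1.505. Somatic embryo 8, 9 and 10 held 1034, 1373 and 1260 FPKM of it. The other embryos ran from 144 to 364 FPKM with a median of 212 FPKM. Callus divided into 204.5 to 255.1 FPKM in libraries 3, 4 and 5 and 66.99 to 72.01 FPKM in libraries 1, 2 and 6, so callus 3, 4 and 5 lay within the range of the other embryos and callus 1, 2 and 6 below it.

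Together the 126 genes held 0.825% ± 0.035 (SD, n = 3) of the summed FPKM of somatic embryo 8, 9 and 10, at 0.801%, 0.865% and 0.809%. They held 0.0871% ± 0.0114 (SD, n = 9) in the other somatic embryos and 0.0704% ± 0.0162 (SD, n = 6) in callus. The mean share was 9.48 times that of the other embryos and 11.7 times that of callus, a description of genes chosen for this height. Callus 3, 4 and 5 held 0.0794% to 0.0884% and callus 1, 2 and 6 held 0.0530% to 0.0594%. Callus 3, 4 and 5 overlapped the other embryos, which ran from 0.0678% to 0.101%.

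A few genes carried much of that share. Cm01G04067.gene alone gave 15.4% of the summed mean FPKM of the set in somatic embryo 8, 9 and 10, the top 5 genes gave 31.6% and the top 10 gave 42.4%. Without Cm01G04067.gene the share was 0.698% ± 0.0239 (SD, n = 3) in somatic embryo 8, 9 and 10, 0.0628% ± 0.0136 (SD, n = 9) in the other embryos and 0.0552% ± 0.00787 (SD, n = 6) in callus. Between 8 and 10 of the 126 were among the 1000 most abundant genes of somatic embryo 8, 9 or 10, against 0 or 1 in each other library.

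**Figure D3:**
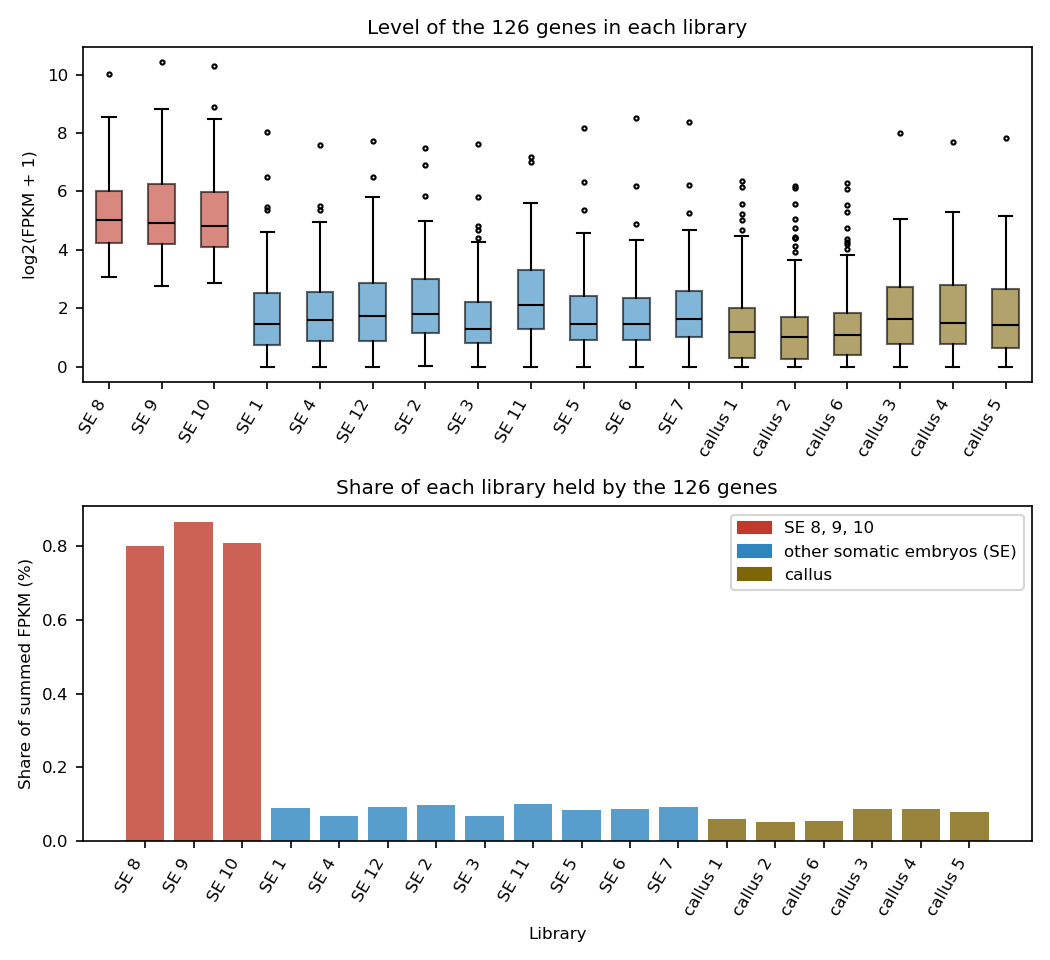
Top, level of the 126 genes in each library as log2(FPKM + 1) (box, quartiles and median; whiskers, 1.5 times the box height at most; points, genes beyond). Bottom, the percent of the summed FPKM of each library that these genes hold, 0.801% to 0.865% in somatic embryo (SE) 8, 9 and 10 and 0.0530% to 0.101% in the other 15 libraries.

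Outside somatic embryo 8, 9 and 10 the genes did not share a single profile. The highest of the other 15 libraries was somatic embryo 11 for 20 genes, somatic embryo 12 for 16, callus 4 for 14 and somatic embryo 7 for 13, while it was somatic embryo 3 or callus 2 for 1 gene each. By the mean of each set of 3, the next highest set was callus 3, 4, 5 for 33 genes (26.2%, compared with 18.9% of all tested genes) and somatic embryo 1, 4, 12 for 29 (23.0%, compared with 21.9%). It was somatic embryo 5, 6, 7 for 27 (21.4%, compared with 16.4%), somatic embryo 2, 3, 11 for 25 (19.8%, compared with 13.7%) and callus 1, 2, 6 for 12 (9.52%, compared with 29.1%). The lowest set was callus 1, 2, 6 for 56 genes (44.4%, compared with 23.7%) and callus 3, 4, 5 for 25 (19.8%, compared with 10.2%). It was somatic embryo 1, 4, 12 for 20 (15.9%, compared with 17.5%), somatic embryo 5, 6, 7 for 16 (12.7%, compared with 11.5%) and somatic embryo 2, 3, 11 for 9 (7.14%, compared with 37.1%). The mean pairwise Pearson correlation over these 15 libraries was 0.12 among the 126 genes and 0.04 among all tested genes. Libraries of a set resemble each other, so the 15 points are not independent, and this is a description.

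Many of the genes were under 1 FPKM in some of these libraries. All of the other 15 libraries reached 1 FPKM in 36 genes (28.6%), compared with 76.8% of all tested genes. In 25 genes (19.8%) no callus library reached 1 FPKM, compared with 4.41% of all tested genes, and 3 of these were listed at 0 in all 6 callus libraries. In 2 genes (1.59%) no other somatic embryo reached 1 FPKM, close to the 1.18% of all tested genes. All 3 libraries of a set were under 1 FPKM in 55 genes for callus 1, 2 and 6 and in 33 for callus 3, 4 and 5. This held in 21 genes for somatic embryo 5, 6 and 7 (16.7%, compared with 3.74% of all tested genes). It held in 20 for somatic embryo 1, 4 and 12 and in 14 for somatic embryo 2, 3 and 11. The share over all tested genes was counted for somatic embryo 5, 6 and 7 only. The rule asks for a low level in these libraries, so the shares are given as a description.

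The callus libraries differed in these genes. The median gene stood at 1.89 FPKM in callus 3, 4 and 5 and at 1.12 FPKM in callus 1, 2 and 6, by the mean of each set. Callus 3, 4 and 5 all lay above callus 1, 2 and 6 in 62 genes (49.2%), compared with 37.5% of all tested genes. The reverse was found in 21 genes (16.7%), compared with 32.2% of all tested genes. After median-of-ratios scaling these 2 counts were 62 and 22, beside 34.5% and 35.4% of all tested genes, where the order of the 2 shares over all genes turned. After quantile normalization they were 66 and 16, beside 38.2% and 31.8%. On FPKM as deposited, the nearest libraries of the 2 callus sets were at least 1 apart on the log2 scale, with callus 3, 4 and 5 above, in 27 genes (21.4%, compared with 5.03% of all tested genes). With callus 1, 2 and 6 above this held in 2 genes (1.59%, compared with 4.56%). The rule left out 6 genes for their low level in callus 1, 2 and 6, which was not done for all tested genes. The 2 callus sets were also defined from these data, so the difference was not tested. Over the tested genes outside the 126, callus 3, 4 and 5 were also the callus libraries more like somatic embryo 8, 9 and 10, with mean Spearman correlations of 0.839 to 0.844 against 0.752 to 0.757 for callus 1, 2 and 6. The part of that likeness in the result was not tested.

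Among the other embryos, somatic embryo 11 and 2 stood higher in these genes than somatic embryo 3, a library of the same set. Somatic embryo 11 exceeded somatic embryo 3 in 109 of the 126 genes (86.5%), whereas it did so in 37.9% of all tested genes. Somatic embryo 2 exceeded somatic embryo 3 in 98 genes (77.8%), compared with 38.6% of all tested genes. The medians of the 126 genes were 3.33 FPKM in somatic embryo 11, 2.46 in somatic embryo 2 and 1.47 in somatic embryo 3. After median-of-ratios scaling the shares were 89.7% and 82.5%, beside 50.2% and 51.3% of all tested genes. Among genes with a mean of 1 to 10 FPKM over the other 15 libraries, somatic embryo 11 exceeded somatic embryo 3 in 86.7% of 83 members and in 37.7% of 7340 other tested genes. These are single libraries, so no test was made. Somatic embryo 11 was no closer to somatic embryo 8, 9 and 10 over the rest of the transcriptome than several others. Its mean Spearman correlation with them was 0.862, against 0.888 for somatic embryo 1, 0.882 for somatic embryo 12 and 0.863 for somatic embryo 2. Somatic embryo 3 was slightly less close than somatic embryo 11, at 0.858.

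To compare the labelled tissues without the 3 libraries in which the genes stood highest, limma was run over all 20365 tested genes. It compared the other 9 somatic embryos with the 6 callus libraries. The choice of genes also capped their levels in these 9 embryos and 6 callus libraries and left out some genes low in callus. The comparison is therefore not independent of that choice. Of the 126 genes, 20 (15.9%) were higher in the other embryos and 7 (5.56%) lower, at a Benjamini-Hochberg adjusted p under 0.05 and at least 2-fold. Over all tested genes limma called 11.7% higher and 10.8% lower. In 13 of the 20 genes called higher no callus library reached 1 FPKM, so they passed the filter on low values through somatic embryos alone and a difference was built in. The same was true of 639 of the 2383 genes called higher over the table (26.8%). In 1 of the 7 genes called lower (14.3%) no other embryo reached 1 FPKM, compared with 182 of the 2206 called lower over the table (8.25%). The higher and lower counts of the set are for this reason a description. Taken in both directions, 27 of the 126 (21.4%) were called, a share close to the 22.5% of all tested genes. The remaining 99 genes did not pass. Without regard to fold, 32 (25.4%) were higher and 11 (8.73%) lower by limma, with 19.2% and 30.2% of all tested genes. The limma fold change (other embryos minus callus, log2 scale) had a median of 0.26 over the 126 genes and ran from -1.83 to 2.40. The same median over all tested genes was -0.13 on FPKM as deposited and 0.01 after median-of-ratios scaling, where the 126 genes stood at 0.37.

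This balance changed with the callus libraries used. Without callus 1, 2 and 6 limma called 15 of the 126 genes higher and 15 lower, with 7.95% and 8.51% of all tested genes called. The median fold change over the 126 was then 0.02 on the log2 scale. Leaving out callus 3, 4 and 5 instead gave 33 higher and 7 lower, with 13.5% and 13.9% of all tested genes, and the median was 0.60. Of the 27 genes called with all 15 libraries, 18 were called the same way without callus 1, 2 and 6 and 22 without callus 3, 4 and 5.

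In 16 genes all 9 other embryos lay above all 6 callus libraries, and in 4 genes all lay below. These are 12.7% and 3.17% of the 126, compared with 8.86% and 16.3% of all tested genes. Of the 20 genes called higher, 17 had a callus mean under 1 FPKM. When somatic embryo 8, 9 and 10 were added back, limma called 31 of the 126 higher and 0 lower, with 11.3% and 10.7% of all tested genes; 0 of the 126 were lower at an unadjusted p under 0.05. All 20 genes called higher without these libraries were among the 31. The rule set somatic embryo 8, 9 and 10 above every callus library. Nothing is therefore read from the larger number, from the absence of lower genes or from the 20 genes that stayed called.

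**Figure D4:**
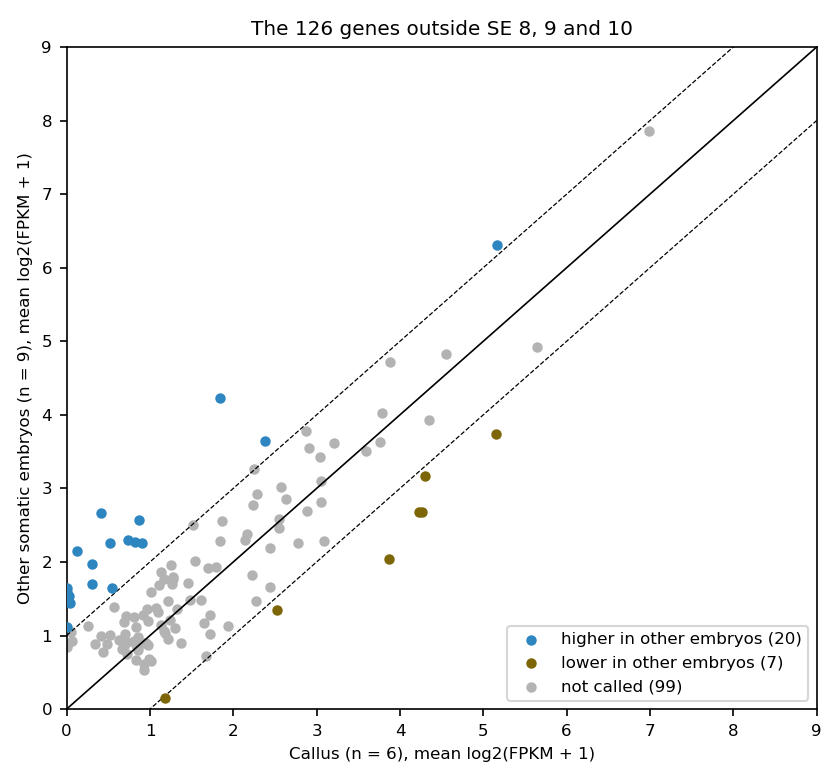
Mean log2(FPKM + 1) of the 126 genes in the other 9 somatic embryos (vertical) and the 6 callus libraries (horizontal); the solid line marks equal levels and the dashed lines a difference of 1. The 20 genes called higher in the other embryos lie mostly at low callus levels, 17 of them with a callus mean under 1 FPKM, and 7 genes were called lower.

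The 2 genes with the largest rise in the other embryos over callus were Cm08G01891.gene and Cm02G02401.gene. Cm08G01891.gene had a lowest, median and highest level of 5.97, 19.2 and 40.0 FPKM in the other embryos and 0.99, 2.58 and 6.57 FPKM in callus, with 288, 187 and 140 FPKM in somatic embryo 8, 9 and 10. The other embryos and callus overlapped, with somatic embryo 3 below callus 4. Its log2 fold change was 2.40 ± 0.42 (SE; limma adjusted p = 0.00029). Cm02G02401.gene had 2.53, 4.39 and 13.1 FPKM in the other embryos and 0.09, 0.30 and 0.90 FPKM in callus by the same measures, and 41.0, 74.4 and 62.6 FPKM in somatic embryo 8, 9 and 10. Here the groups did not overlap, and the log2 fold change was 2.25 ± 0.31 (SE; limma adjusted p = 3.1e-05). No callus library reached 1 FPKM of Cm02G02401.gene, so it passed the filter on low values through somatic embryos alone. A difference was therefore built in, and its p-value and lack of overlap are given as a description.

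The 2 genes with the largest fall were Cm09G02184.gene and Cm01G01025.gene. These genes were low in the other embryos, intermediate in callus and highest in somatic embryo 8, 9 and 10. Cm09G02184.gene had a lowest, median and highest level of 0.31, 5.00 and 9.17 FPKM in the other embryos and 9.31, 13.8 and 19.8 FPKM in callus, without overlap, with 67.7, 94.7 and 74.6 FPKM in somatic embryo 8, 9 and 10. Its log2 fold change was -1.83 ± 0.48 (SE; limma adjusted p = 0.0054), and it did not pass without callus 3, 4 and 5 (limma adjusted p = 0.084). Without somatic embryo 1, 4 and 12 the log2 fold change was -1.11, still called (limma adjusted p = 0.0074). Cm01G01025.gene had 0.77, 8.97 and 17.0 FPKM in the other embryos and 12.4, 19.3 and 21.3 FPKM in callus by the same measures, and 90.9, 95.5 and 72.1 FPKM in somatic embryo 8, 9 and 10. Somatic embryo 2 overlapped callus, and the log2 fold change was -1.59 ± 0.45 (SE; limma adjusted p = 0.0088), which did not pass without callus 1, 2 and 6 (limma adjusted p = 0.094). Without somatic embryo 1, 4 and 12 its change was under 2-fold, at -0.92 on the log2 scale. In both genes somatic embryo 1, 4 and 12 were the lowest set, at 0.31 to 0.67 FPKM in Cm09G02184.gene and 0.77 to 2.25 FPKM in Cm01G01025.gene. All 4 genes were picked from these data for the size of their change. Because limma took libraries of a set as independent, their standard errors and p-values could be too small.

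**Figure D5:**
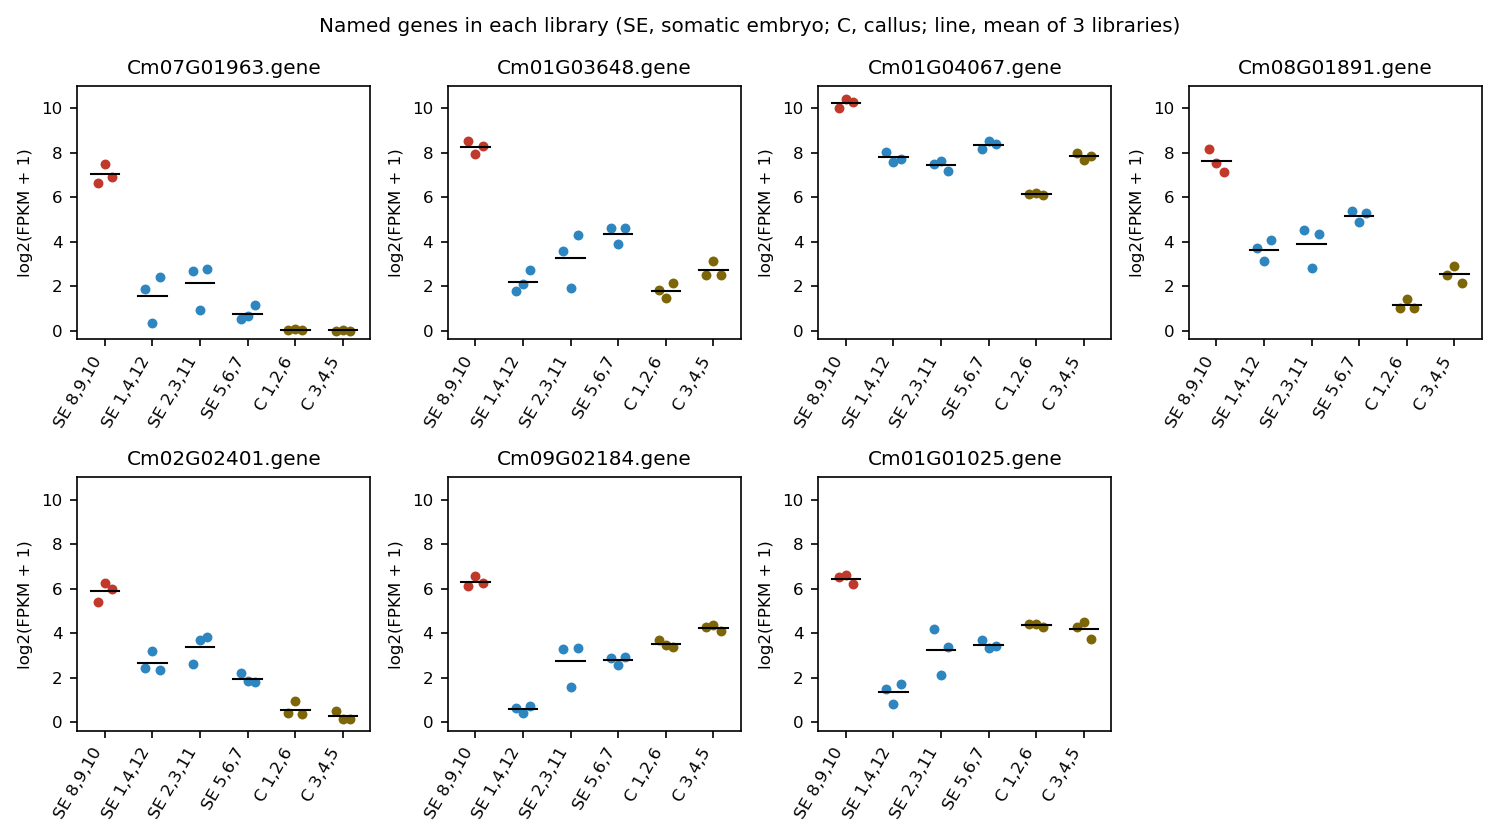
Level of the 7 genes given by ID in every library, as log2(FPKM + 1), by sets of 3 libraries (SE, somatic embryo; C, callus; points, libraries; line, mean of 3). In Cm07G01963.gene and Cm02G02401.gene all callus libraries are under 1 FPKM, and in Cm09G02184.gene and Cm01G01025.gene both callus sets average more than each of the other embryo sets.

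Other sets of 3 libraries also had genes of their own by the same gap. Beside the 126 described here, the numbers were 212 in callus 1, 2 and 6, 43 in somatic embryo 5, 6 and 7, 29 in callus 3, 4 and 5, 13 in somatic embryo 2, 3 and 11 and 8 in somatic embryo 1, 4 and 12. In 45 genes somatic embryo 8, 9 and 10 all lay at least 1.5 below the lowest of the other 15 libraries. Only genes above a minimum level in 15 libraries can show such a fall, so the 2 directions are not compared.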

How the data were processed

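RNA of 12 somatic embryo and 6 callus libraries was extracted with a plant RNA kit and made into strand-specific libraries, per the labels' protocols. The authors deposited FPKM in a single table with 2 decimals. Per the submitters' processing notes, FastQC 0.11.9, Trimmomatic and STAR 2.7.10b were used; no source used here names the program behind FPKM, the build or the annotation. The 18 columns whose run name matches a sample title were used and 195 other columns were not. FPKM depends on library composition and gene models, and depth is unknown.

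Members and tests were chosen with earlier results of these data known. Values were log2(FPKM + 1). The comparison of tissues used limma 3.58.1 (R 4.3.3, trend and robust settings, statmod 1.5.0), checked on simulated data; calls needed an adjusted p under 0.05 and a 2-fold change. Counts and shares used Python 3.11.15 with pandas 2.3.3. Genes named are the 2 with the largest gap, the most abundant, and the 2 with the largest called rise and the 2 with the largest called fall. Lists of gene families were not run, since the IDs carry no names, and no sequence is shown. The most identical values in any pair of libraries were 1.83% of tested genes, and all 18 were counted. Alternatives covered pseudocount, scaling, filter, gap, limma settings, the replicate block and left-out libraries.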

Additional observations from a re-analysis of the deposited data

Results flagged for a closer look

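In callus, Cm01G01025.gene stood at 12.4 FPKM in callus 5 and at 18.5 to 21.3 FPKM in the other 5 callus libraries, a gap large for the range of 6 libraries. Of 10 quantities examined in callus in this way (the share, median level and number of low genes of the set, and the 7 genes given by ID), this was the 1 that stood out, and chance flags about 1 in 20. Without callus 5 the log2 fold change of the gene (other embryos minus callus) was -1.69 (limma adjusted p = 0.011). The 12 somatic embryos are too many for this check.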

How the results depend on the processing

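The number of genes in the set, 126, was 256 at a gap of 1, 45 at a gap of 2 and 83 with a mean of at least 5 FPKM (82 shared). It stayed within 1.5 times under the other settings, with 103 of the 126 kept after median-of-ratios scaling, 109 after quantile normalization and 107 with a pseudocount of 0.01, and was 124 to 147 with any 1 library left out. Leaving out 1 library cannot narrow a gap, so a gene of the set could then be lost only through the filter or the callus rule. The low end of that range was thus largely fixed in advance. The share of summed FPKM in somatic embryo 8, 9 and 10, 0.825%, followed the genes taken: 0.709% and 0.657% with pseudocounts of 0.1 and 0.01, 0.573% with median-of-ratios scaling, 0.764% with a mean of at least 5 FPKM, 0.866% without a filter or with 1 FPKM in 3 libraries, 0.892% with the 6 genes low in callus kept, 1.66% and 0.269% at gaps of 1 and 2, and 0.698% without the most abundant gene. Choosing genes without 1 library, a choice made after the data were seen, gave 0.677% to 1.05%. In the comparison of the other embryos with callus, 27 of the 126 and 4589 of all tested genes were called. Without a fold threshold these were 43 and 10065, and otherwise they stayed within 1.5 times, at 27 to 29 and 4227 to 4808 when 1 library was left out. The median log2 difference over the set, 0.26, was 0.55 and 0.61 with pseudocounts of 0.1 and 0.01, 0.60 without callus 3, 4 and 5, 0.02 without callus 1, 2 and 6, and 0.19 to 0.36 without 1 library; the cause was not tested. A replicate block for the number of the sample, which only samples 1 to 6 of both tissues allow, gave 28 called genes of the 126 and 4365 of all tested genes. The same samples gave 28 and 4432 without it. Same-numbered samples did not deviate together, with correlations of -0.0767 to 0.0115, so the numbers were not taken to pair samples. Low genes cannot be judged for depth, which is unknown.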

Other observations

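Some of the 126 genes were neighbours in the order of their ID numbers. Among the 252 places next to one of them in the order of the tested IDs, 22 (8.73%) were held by another of the 126, while the 126 are 0.619% of all tested genes. These were 11 pairs with 21 distinct genes. Cm01G01025.gene was in such a pair. The correlation of a pair over the other 15 libraries ran from -0.49 to 0.97, so neighbours did not always move together outside somatic embryo 8, 9 and 10. The pairs were not examined for genome position or likeness of sequence. By the prefix of the ID, the share of tested genes that belong to the set ran from 0.279% (Cm03) to 1.15% (Cm02, 20 genes).

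Within the 3 libraries where the set stood high, somatic embryo 8 was the highest for 56 genes, somatic embryo 9 for 48 and somatic embryo 10 for 22. These are 44.4%, 38.1% and 17.5% of the 126, compared with 47.9%, 26.5% and 25.6% of all tested genes. The median range over the 3 libraries was 0.40 on the log2 scale in the 126 genes and 0.28 in all tested genes. A range of at least 1 was found in 10 of the 126 (7.94%), close to the 6.14% of all tested genes. Within other sets, somatic embryo 12 was the highest of 1, 4 and 12 for 63 of the 126 genes (in all tested genes, 27.3%), and somatic embryo 7 the highest of 5, 6 and 7 for 61 (48.4%, compared with 34.9%). Callus 1 was the highest of callus 1, 2 and 6 for 72 genes (57.1%, compared with 36.6%). These are single libraries, and the differences were not tested.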
